A study of Mus musculus with 6 samples.

Results

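The genes described here encode interferon beta (*Ifnb1*), interferon gamma (*Ifng*), the chains of the receptors for both (*Ifnar1* and *Ifnar2*, *Ifngr1* and *Ifngr2*) and the chains of the IL-10 receptor (*Il10ra* and *Il10rb*). They were chosen by gene symbol, 8 of the 55335 genes in the table. RNA-seq values were analysed for 6 libraries of macrophages grown from bone marrow with M-CSF for 7 days (BMDMs). By their labels, 3 had shared a culture for 24 h with neutrophils of *Cd177* WT donors (WT) and 3 with neutrophils of *Cd177* KO donors (KO). The sequenced BMDMs were *Cd177* WT in both groups, the neutrophils came from the spinal cord lesion of mice at 3 days post-injury (dpi), the mice were adult male C57BL/6, and the BMDMs were sorted as Ly6G-negative cells before RNA extraction. The knockout was in the whole donor animal, no library holds BMDMs without neutrophils, and nothing in the labels says whether the 3 libraries of a group came from separate cultures, so p-values measure only the spread between these libraries. The question asked here is whether the receptor levels followed or opposed the interferon response of the same cells.

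Type I interferons bind IFNAR1 and IFNAR2, which carry the kinases TYK2 and JAK1, and activate STAT proteins and IRF9. Interferon gamma, made mainly by T and NK cells, binds IFNGR1, and IFNGR2 joins to start JAK1 and JAK2 signalling. IL-10 is bound by IL10RA, while IL10RB is an accessory chain shared with other IL-10 family and lambda interferon receptors, and STAT3 carries the anti-inflammatory signal in macrophages. Macrophages carry all of these receptors, and the interferon-stimulated genes are read through short promoter elements named ISRE (bound by complexes of STAT proteins with IRF9) and GAS (bound by STAT dimers).

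To show which of these elements the receptor genes carry close to their start, the 250 bases before the RefSeq start (GRCm38.p6) are printed 5′ to 3′ for the interferon receptor chains, beside *Ifit1*, the first gene of a type I interferon response list whose promoter held an ISRE. Capitals mark matches on either strand to ISRE (GAAA, any 2 bases, GAAA) or GAS (TTC, any 3 bases, GAA).
Ifngr1, chr10:19591699-19591948, plus strand: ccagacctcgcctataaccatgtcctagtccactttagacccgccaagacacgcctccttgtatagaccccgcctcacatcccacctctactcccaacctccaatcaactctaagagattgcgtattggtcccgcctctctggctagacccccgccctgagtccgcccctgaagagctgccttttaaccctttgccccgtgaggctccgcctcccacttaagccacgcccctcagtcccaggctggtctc
Ifngr2, chr16:91546809-91547058, plus strand: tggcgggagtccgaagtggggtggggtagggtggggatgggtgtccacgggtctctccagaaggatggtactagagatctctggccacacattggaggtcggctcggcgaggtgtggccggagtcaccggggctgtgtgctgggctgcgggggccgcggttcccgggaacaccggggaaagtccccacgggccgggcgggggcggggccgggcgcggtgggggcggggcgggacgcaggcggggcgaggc
Ifnar1, chr16:91484965-91485214, plus strand: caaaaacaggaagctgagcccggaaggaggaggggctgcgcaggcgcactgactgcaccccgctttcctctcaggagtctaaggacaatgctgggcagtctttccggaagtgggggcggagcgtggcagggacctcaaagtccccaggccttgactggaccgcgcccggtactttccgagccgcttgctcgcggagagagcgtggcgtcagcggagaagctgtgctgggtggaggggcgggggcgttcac
Ifnar2, chr16:91372533-91372782, plus strand: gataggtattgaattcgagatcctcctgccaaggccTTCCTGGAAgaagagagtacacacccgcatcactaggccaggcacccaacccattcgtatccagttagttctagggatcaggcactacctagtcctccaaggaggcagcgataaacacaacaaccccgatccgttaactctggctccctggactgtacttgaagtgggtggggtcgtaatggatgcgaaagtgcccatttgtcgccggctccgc
Ifit1, chr19:34640639-34640888, plus strand: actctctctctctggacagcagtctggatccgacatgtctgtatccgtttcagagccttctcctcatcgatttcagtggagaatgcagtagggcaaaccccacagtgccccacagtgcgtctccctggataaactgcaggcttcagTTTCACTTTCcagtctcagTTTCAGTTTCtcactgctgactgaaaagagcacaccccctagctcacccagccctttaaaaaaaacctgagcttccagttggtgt
Of the 8 genes, 6 had a promoter in the table, all but *Il10ra* and *Il10rb*. No ISRE match lay in these 6, against 2.98% of all 32851 promoters and 11 of the 27 type I interferon response genes with a promoter. A GAS match lay in *Ifnar2*, from position -214 relative to the start, and in *Ifng*, against 7.02% of all promoters and 9 of 21 interferon gamma response genes, and no GAS and ISRE match overlapped in the printed sequences. *Ifit1* held 2 ISRE matches, from positions -104 and -85. The looser letters GGG, any 5 bases, CC, which cover many NF-kB sites, lay in *Ifngr1*, *Ifngr2* and *Ifnb1* and in 45.8% of all promoters, and the PU.1-type letters GAGGAAG lay in none of the 6 and in 10.6% of all. A match is a description of letters in this window, and a missing match says only that these letters were not in it.

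The deposited unit was FPKM, a level per transcript length and per library total. Levels of different genes can be compared per length only as far as the unstated annotation and the length-linked shift of replicate 3 (below) allow. The 13367 genes whose mean reached 0.5 FPKM were tested by limma after taking log2(FPKM + 0.5). P-values were adjusted by Benjamini and Hochberg's method across these genes, and fold changes on this scale understate those of low genes. Low values gave an implied depth between 17600000 and 20200000 fragments per library. All 12 macrophage markers listed were detected in every library, from *Cx3cr1* (2.27 to 4.19 FPKM) to *Lyz2* (4460 to 6590 FPKM), with *Adgre1* between 218 and 309 FPKM and *Csf1r* between 232 and 293 FPKM. Of these markers 3 were higher in KO (*Mrc1* 2.96, *Mertk* 0.72 and *Adgre1* 0.30 on the log2 scale), 3 were lower (*Cd14* -3.33, *Fcgr1* -1.83 and *Msr1* -0.93) and 6 did not pass, and their sums lay between 6820 and 8190 FPKM in WT and between 7590 and 8290 FPKM in KO. Neutrophil markers summed to between 202 and 262 FPKM in WT and between 557 and 572 FPKM in KO, with 10 of the 12 tested members higher in KO. Among the tested markers *Mmp8* went the other way (-1.12 on the log2 scale). *Ly6g*, the gene of the sort marker, was listed at 0 in every WT library. It had 0.66, 0.547 and 0.403 FPKM in KO replicates 1, 2 and 3, without passing the filter. *Cd177* itself lay between 0.309 and 0.544 FPKM in WT and between 1.79 and 2.28 FPKM in KO, so the level ran against the labels of the donor genotype although the sequenced cells carry the intact gene, and WT and KO below name the libraries as labelled. Replicate 3 of each group stood apart from replicates 1 and 2 on the second principal component (13.5% of the variance). In both, the 4323 genes with the longest transcripts were lower than in replicates 1 and 2, with median log2 differences of -0.26 in WT and -0.12 in KO.

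The ligands were hardly present in the BMDMs. *Ifnb1* (ENSMUSG00000048806, chromosome 4 from 88522025 to 88522774 in GENCODE M21, GRCm38) was listed at 0 in WT replicates 1 and 2 and in all 3 KO libraries, and had 0.074 FPKM in WT replicate 3. *Ifng* (ENSMUSG00000055170, chromosome 10 from 118441046 to 118445892) was listed at 0 in the same 5 libraries and had 0.105 FPKM in WT replicate 3. If the step of the low values is 1 fragment, these values stand for about 1 and 2.3 fragments, and 3 fragments would give between 0.198 and 0.227 FPKM of *Ifnb1* and between 0.123 and 0.141 FPKM of *Ifng*. Neither gene passed the filter, and a difference between the groups was not detectable at this depth. A list of 20 further genes, the other interferons and the lambda interferon receptor chain *Ifnlr1*, summed to at most 0.601 FPKM in any library, and none was tested. The 15 T and NK cell markers summed to between 2.76 and 3.34 FPKM in WT and between 5.80 and 7.87 FPKM in KO. *Cd3d*, *Prf1* and *Tbx21* were listed at 0 in all 6 libraries and *Cd3e* did not exceed 0.0321 FPKM, while *Gzmb* reached 1.26 FPKM in WT replicate 3 and *Trac* 1.08 FPKM in KO replicate 1 without passing the filter. *Cd4* was the 1 marker of 15 that was tested, and it was higher in KO (log2 fold change 1.43, adjusted p = 0.000376 from limma).

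Among the 6 receptor chains tested, *Ifngr1*, *Il10ra* and *Il10rb* were higher in KO at an adjusted p-value under 0.05 and none was lower. Over all 13367 tested genes 27.1% were higher and 10.5% lower at this threshold, 37.6% in either direction. The median log2 fold change of the 6 chains was 0.32 and that of all tested genes was 0.19. With median-of-ratios scaling, which brings the median of all genes to -0.01, *Ifngr1* and *Il10rb* stayed higher, *Il10ra* did not pass, and *Ifngr2* was lower. That scaling also moved the share of higher genes among all called genes from 72% to 47.7%. By the study's own rule, which asks for more than a 2-fold change and 0.05 as the limit of the raw p-value, *Ifngr1* and *Il10ra* were higher and no chain was lower, against 6.68% and 4.43% of all tested genes. In 4 of the 6 chains WT and KO libraries had no overlap, against 51.9% of all tested genes. All KO libraries lay above all WT libraries in 3 chains and in 37.5% of all tested genes.

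*Ifngr1* (ENSMUSG00000020009, chromosome 10 from 19591949 to 19610229), the ligand-binding chain of the interferon gamma receptor, had 13.5, 15.2 and 11.2 FPKM in WT replicates 1, 2 and 3 and 57.8, 60.5 and 43.9 FPKM in KO replicates 1, 2 and 3. Every KO library was far above every WT library, and replicate 3 was the lowest of each group. The mean was 13.3 ± 2.01 FPKM in WT and 54.1 ± 8.93 FPKM in KO (SD, n = 3 each), a ratio of 4.08, with a log2 fold change of 1.98 (SE 0.16, adjusted p = 0.000191 from limma). Only 0.748% of the tested genes had a larger log2 fold change. The rise lay between 1.76 and 2.13 over all alternatives and was 2.01 without replicate 3 of both groups.

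*Ifngr2* (ENSMUSG00000022965, chromosome 16 from 91547072 to 91565623), the signalling partner of *Ifngr1*, did not move with it. It had 41.1, 41.6 and 43.1 FPKM in WT and 38.4, 36.3 and 38.9 FPKM in KO. The KO libraries were all slightly below the WT libraries, with a log2 fold change of -0.15 (95% interval -0.32 to 0.03, adjusted p = 0.162 from limma). With median-of-ratios and upper-quartile scaling the value was -0.37 and -0.36 (adjusted p = 0.0149 and 0.0217 from limma), so the call depends on the scaling. The ratio of *Ifngr1* to *Ifngr2* within a library is the same under any scaling by library. It was 0.327, 0.364 and 0.259 in WT and 1.51, 1.67 and 1.13 in KO, so the binding chain was the scarcer mRNA in every WT library and the more abundant one in every KO library. On the log2 scale the ratio differed by 2.17 between the groups (exact permutation test, two-sided, p = 0.1, the smallest that 3 libraries against 3 allow; 0.3 after adjustment over the 3 receptors).

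**Figure D1:**
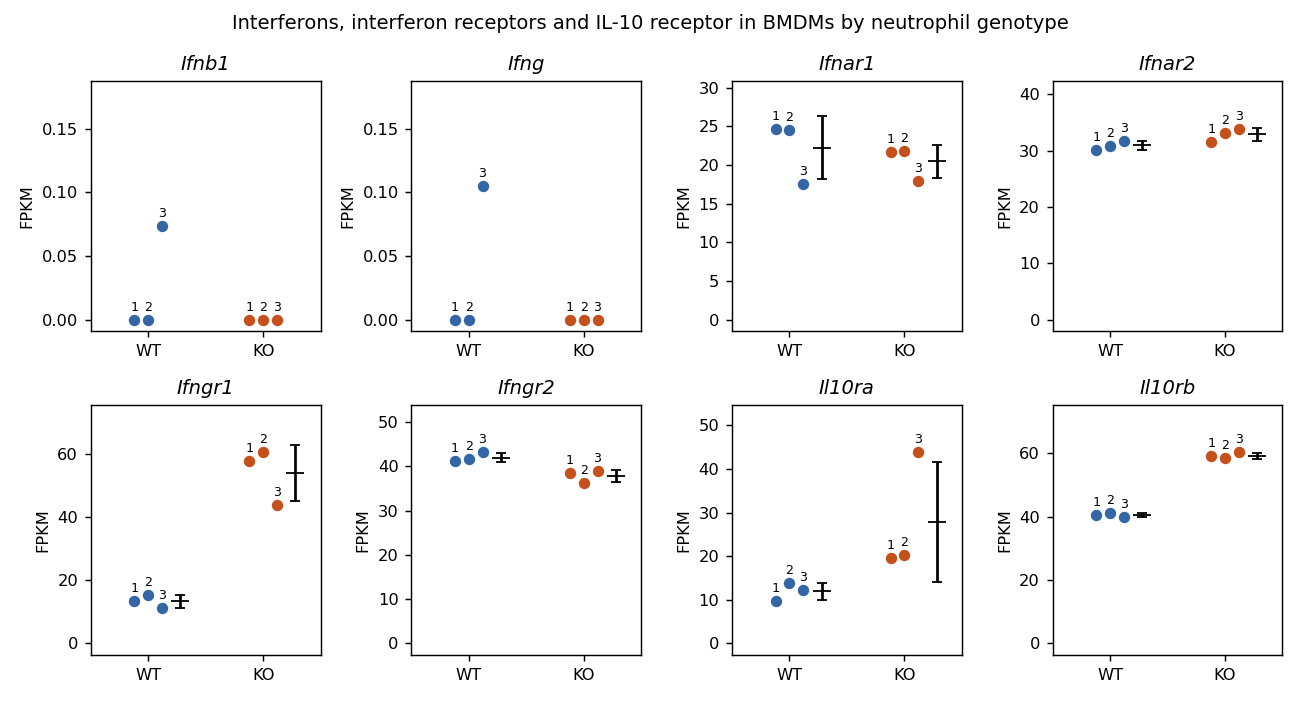
FPKM of the 8 genes in each library (points, numbered by replicate) with the mean and SD of each group of 3 beside them for the 6 tested genes; WT and KO are the labelled *Cd177* genotypes of the co-cultured neutrophils, and each panel has its own axis. *Ifngr1* lies between 11.2 and 15.2 FPKM in WT and between 43.9 and 60.5 FPKM in KO, while both *Ifnar* chains overlap between the groups.

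The chains of the type I interferon receptor did not pass the test in either direction. *Ifnar1* (ENSMUSG00000022967, chromosome 16 from 91485238 to 91507441) had 24.7, 24.5 and 17.6 FPKM in WT and 21.7, 21.8 and 18 FPKM in KO. The groups overlapped and replicate 3 was the lowest of each, and the log2 fold change was -0.11 (95% interval -0.48 to 0.26, adjusted p = 0.621 from limma). Without replicate 3 of both groups it was -0.17 (adjusted p = 0.0368 from limma), a fall that 2 libraries a group carry. *Ifnar2* (ENSMUSG00000022971, chromosome 16 from 91372783 to 91405589), the high-affinity chain, had 30.2, 30.8 and 31.8 FPKM in WT and 31.6, 33.2 and 33.9 FPKM in KO, with a log2 fold change of 0.09 (95% interval -0.09 to 0.27, adjusted p = 0.384 from limma). Its sign turned with median-of-ratios scaling (-0.14), where it did not pass either. The intervals hold the changes of both chains within -0.48 and 0.27 on the log2 scale as deposited. *Ifnar2* has 5 annotated protein-coding transcripts, soluble and membrane forms are known, and a value per gene cannot tell them apart. The ratio of *Ifnar1* to *Ifnar2* lay between 0.555 and 0.818 in WT and between 0.529 and 0.687 in KO, a log2 difference of -0.20 (exact permutation test, two-sided, p = 0.4).

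Both chains of the IL-10 receptor were higher in KO, *Il10rb* evenly and *Il10ra* unevenly. *Il10rb* (ENSMUSG00000022969, chromosome 16 from 91406164 to 91425834) had 40.5, 41.1 and 39.9 FPKM in WT and 59.1, 58.5 and 60.3 FPKM in KO. It had the smallest spread of the 6 chains, and the rise from 40.5 ± 0.609 to 59.3 ± 0.944 FPKM (SD, n = 3 each) gave a log2 fold change of 0.54 (SE 0.07, adjusted p = 0.00123 from limma), which was 0.32 with median-of-ratios scaling (adjusted p = 0.0177). *Il10ra* (ENSMUSG00000032089, chromosome 9 from 45253837 to 45269149) had 9.84, 13.8 and 12.3 FPKM in WT and 19.7, 20.3 and 43.8 FPKM in KO. All KO libraries were above all WT libraries, and KO replicate 3 was far above the other two. The mean was 12 ± 2.02 FPKM in WT and 27.9 ± 13.8 FPKM in KO (SD, n = 3 each), and the log2 fold change was 1.10 (SE 0.31, adjusted p = 0.0321 from limma). Without KO replicate 3 it was 0.72 (adjusted p = 0.0196 from limma). The call was lost without WT replicate 1, 2 or 3 (adjusted p = 0.0975, 0.057 and 0.0539 from limma) and with median-of-ratios scaling (0.87, adjusted p = 0.0812). The ratio of *Il10ra* to *Il10rb* was 0.243, 0.337 and 0.309 in WT and 0.333, 0.347 and 0.727 in KO, so the groups overlapped, with a log2 difference of 0.58 (exact permutation test, two-sided, p = 0.2) that was 0.21 without KO replicate 3.

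**Figure D2:**
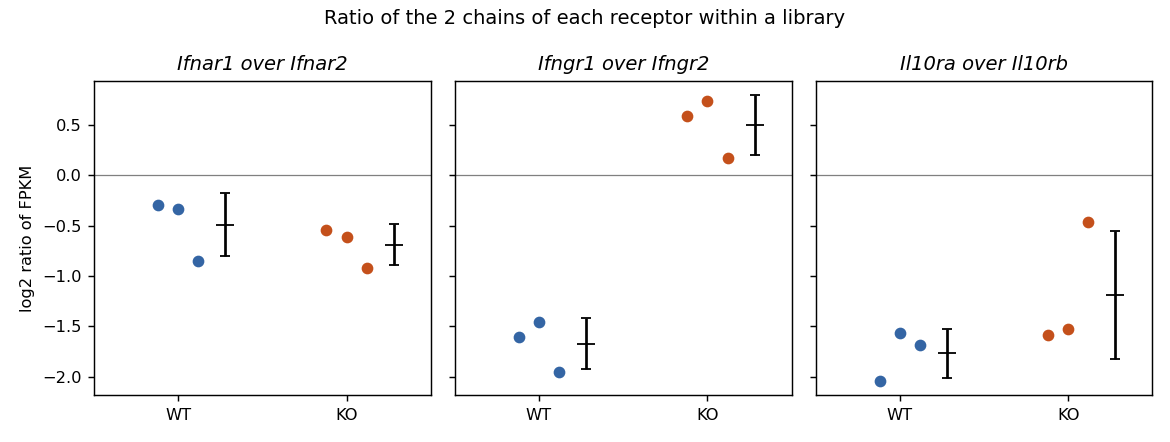
Log2 ratio of the FPKM of both chains of each receptor in each library (points, with replicates 1, 2 and 3 set from left to right) with the mean and SD of each group of 3; the line at 0 marks equal levels. For *Ifngr1* over *Ifngr2* the group mean went from -1.67 in WT to 0.50 in KO, and the other ratios overlap between the groups.

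The order of the receptor mRNAs therefore differed between the groups. In WT the means ran from *Ifngr2* (42 FPKM) over *Il10rb* (40.5), *Ifnar2* (30.9), *Ifnar1* (22.3) and *Ifngr1* (13.3) to *Il10ra* (12 FPKM), and only the ranges of the last 2 overlapped. In KO *Il10rb* was highest (59.3 FPKM), followed by *Ifngr1* (54.1), *Ifngr2* (37.8), *Ifnar2* (32.9), *Il10ra* (27.9) and *Ifnar1* (20.5 FPKM). There the ranges of *Il10rb* and *Ifngr1*, of *Ifnar2* and *Il10ra*, and of *Il10ra* and *Ifnar1* overlapped, and the wide range of *Il10ra* (19.7 to 43.8 FPKM) also spanned that of *Ifngr2*. In these bulk samples a larger share of cells that carry a receptor and more receptor mRNA per cell cannot be told apart. B-cell markers, of which *Ighm* had at most 0.39 FPKM in WT and between 9.43 and 10.5 FPKM in KO, and the neutrophil markers were higher in KO together with these receptors. The B-cell marker *Igkc* was listed at 0 in all libraries. The part of neutrophil and B-lineage RNA in the receptor values was not tested.

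The genes downstream of the interferon receptors went the other way. All 36 genes of a type I interferon response list were tested, and limma called each of them lower in KO, with log2 fold changes between -5.75 and -0.33 and a median of -2.81. *Ifit1*, which binds viral RNA, went from 72.5 ± 6.65 to 1.14 ± 0.445 FPKM and *Ifit2* from 108 ± 5.58 to 1.83 ± 0.171 FPKM (SD, n = 3 each). Of 29 genes of an interferon gamma response list 27 were tested, 24 were lower and none was higher, with a median of -1.99. Genes of this list can also be induced by other signals, so the list is no measure of interferon gamma receptor activity alone. Members of it were *Cxcl9*, a T-cell attracting chemokine (log2 fold change -6.66, adjusted p = 3.17e-07 from limma), *Cxcl10* (-5.01), *Irf1* (-1.99), a transcription factor gene induced by interferon, and *Irf8*, which did not pass (0.21, adjusted p = 0.538). The weakest falls among the called members were those of the MHC class II genes *H2-Aa* (-0.36) and *H2-Ab1* (-0.86) and of *Icam1* (-0.66) and *Psmb9* (-0.75). Among the chains of the type I and gamma receptors, only *Ifngr1* moved against this fall. *Il10rb* and *Il10ra*, which are in neither receptor, rose too as deposited (0.54 and 1.10). With median-of-ratios scaling *Il10ra* was not called. *Ifnar1* and *Ifnar2* moved neither with the fall nor against it beyond their error as deposited. All KO libraries of *Ifngr2* (36.3 to 38.9 FPKM) lay below all its WT libraries (41.1 to 43.1 FPKM), in the direction of the fall. Groups without overlap, in either direction, were found for 51.9% of all tested genes. As deposited *Ifngr2* was not called (log2 fold change -0.15, adjusted p = 0.162 from limma). With median-of-ratios and upper-quartile scaling it was called lower (-0.37 and -0.36). Genes such as *Stat2* and *Socs1* stand in these lists and in others below.

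**Figure D3:**
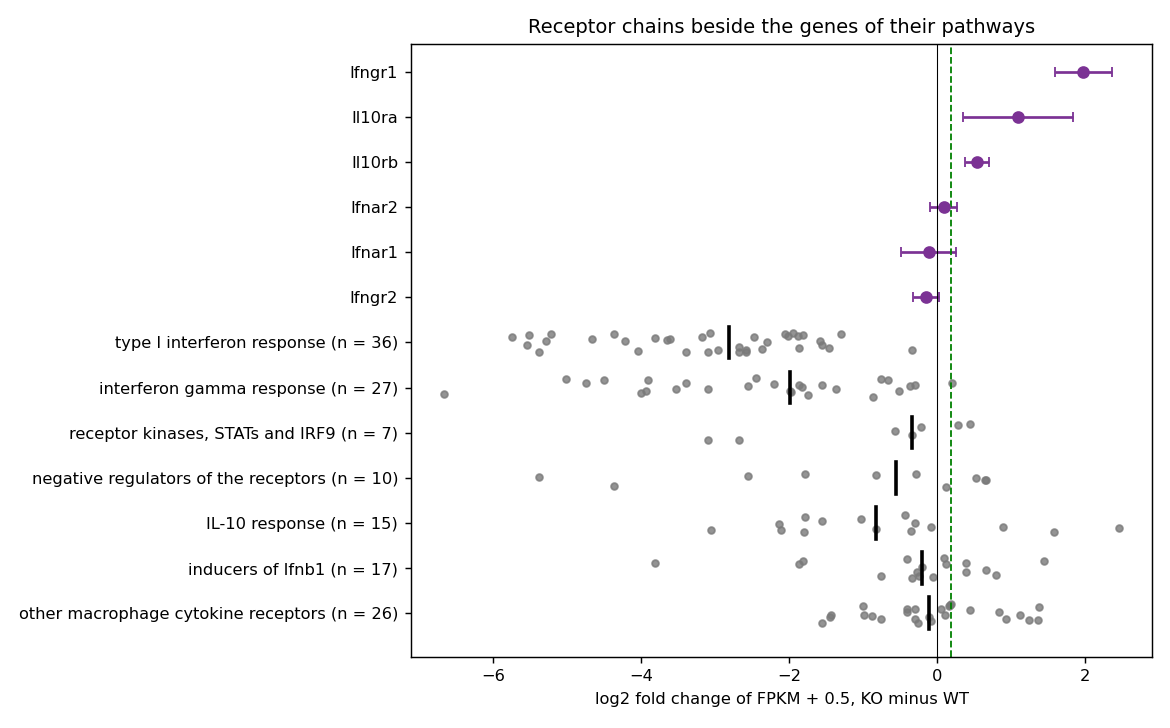
Log2 fold change of FPKM + 0.5, KO minus WT, for the 6 tested receptor chains (points with 95% limma intervals) and for each tested gene of 7 pathway lists (grey points, with the median of the list as a black bar); the dashed line marks 0.19, the median of all tested genes. *Ifngr1* at 1.98 lies on the other side of 0 from the type I interferon response (median -2.81) and the interferon gamma response (median -1.99).

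Between receptor and response, the kinases and transcription factors split. *Jak1*, the kinase shared by IFNAR2, IFNGR1 and IL10RA, went from 32.1 ± 2.79 to 43.9 ± 1.44 FPKM (log2 fold change 0.45, adjusted p = 0.00869 from limma) and *Jak2*, the kinase of IFNGR2, from 14.7 ± 1.72 to 9.63 ± 0.326 FPKM (log2 fold change -0.57, adjusted p = 0.00621 from limma, SD and n = 3 each). *Tyk2*, the kinase of IFNAR1 and IL10RB, did not pass (0.29, adjusted p = 0.359). *Stat2* had 37.1, 41.2 and 20.6 FPKM in WT and 4.85, 5.01 and 3.87 FPKM in KO (log2 fold change -2.67, adjusted p = 0.000394 from limma). *Irf9* fell less (-0.33, adjusted p = 0.0273) and *Stat3*, which IL-10 uses, did not pass (-0.22, adjusted p = 0.197). Of the 7 genes 1 was higher and 4 were lower, and the rise of *Jak1* was not called with median-of-ratios or upper-quartile scaling. Of 10 negative regulators of these receptors 5 were lower and 3 higher. *Usp18*, which holds back signalling at IFNAR2, went from 31.6 ± 2.35 to 1.05 ± 0.161 FPKM (SD, n = 3 each), *Socs1*, an inhibitor of the JAK kinases, fell with -2.55 and *Socs3* with -1.78. *Ptpn1* and *Ptpn6*, phosphatases that act on JAK and STAT proteins, and *Pias1*, an inhibitor of STAT proteins, rose with 0.65, 0.67 and 0.53.

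On the IL-10 side, *Il10* itself was low in both groups, with 0.121, 0.185 and 0.0424 FPKM in WT and 1.39, 1.41 and 1.23 FPKM in KO. Its log2 fold change was 1.59 (SE 0.15, adjusted p = 0.000356 from limma). Of the 8 other ligand and receptor genes of the IL-10 family in a fixed list *Il20ra* was the only other one tested, and it fell by 0.72 on the log2 scale (adjusted p = 0.0369). Of 15 genes known to be induced by IL-10 in macrophages 3 were higher, 10 were lower and 2 did not pass, with a median of -0.83. *Cd163*, the haemoglobin scavenger receptor, rose from 0.126 ± 0.0421 to 2.97 ± 0.474 FPKM (SD, n = 3 each, log2 fold change 2.46, adjusted p = 5.27e-05 from limma), and *Il10* and the repressor *Etv3* (0.90) rose with it. *Socs3*, *Bcl3* (-0.35) and *Nfil3* (-2.14) fell, as did *Il1rn*, the IL-1 receptor antagonist (-2.11), and *Hmox1*, the heme-degrading enzyme (-3.05). These genes are also induced by other signals than IL-10, so the list is no measure of IL-10 receptor activity alone.

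Among the sensors and adaptors that can induce *Ifnb1*, 4 of 17 were higher, 4 were lower and 9 did not pass. Those that fell were *Irf7* (-3.81), the RNA sensor genes *Ifih1* (-1.87) and *Ddx58* (-1.81), which are themselves interferon-stimulated, and the adaptor *Myd88* (-0.40). The endosomal DNA sensor gene *Tlr9* (1.45), the adaptors *Ticam2* (0.67) and *Mavs* (0.40), and the kinase gene *Ikbke* (0.40) rose. *Irf3* (0.09, adjusted p = 0.569) and *Tmem173*, which encodes STING (0.12, adjusted p = 0.559), did not pass. With median-of-ratios scaling 2 were higher and 7 lower.

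Other macrophage cytokine receptors moved both ways. Of 29 listed 26 were tested, 7 being higher in KO and 9 lower (median -0.10 on the log2 scale). Of the 6 chains described here 3 were higher and 0 lower, and of all tested genes 27.1% were higher and 10.5% lower. With median-of-ratios scaling 5 of the other receptors were higher and 12 lower, and 2 of the chains were higher and 1 lower. *Csf1r*, the M-CSF receptor, did not pass (0.11, adjusted p = 0.431 from limma). *Csf2ra* (-0.41) and the beta chain genes *Csf2rb* (-1.55) and *Csf2rb2* (-1.45), which are near-identical copies, fell. *Tgfbr1* and *Tgfbr2* rose (0.94 and 1.38). On the log2(FPKM + 0.5) scale the change of *Ifngr1* exceeded that of all 26. By the ratio of means, 4.08-fold for *Ifngr1*, the low *Lifr* and *Il12rb1* changed more. *Lifr* rose 7.67-fold (0.176 to 1.35 FPKM) and *Il12rb1* fell 5.06-fold (1.84 to 0.365 FPKM).

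The receptor genes of chromosome 16 lie next to each other, so their different values can be read along the locus. *Ifnar2*, *Il10rb*, *Ifnar1* and *Ifngr2* lie within 192.84 kb on the plus strand, followed by *Tmem50b*, *Dnajc28*, *Gart*, *Son*, *Donson* and *Cryzl1*. Of the 4 receptor genes *Il10rb* rose, although its direct neighbour *Ifnar2*, which ends less than 1 kb before it, did not pass. *Gm21970* is annotated across both, was listed at 0 in all libraries but WT replicate 2 (0.793 FPKM), and overlaps them on the same strand, so reads in the shared exons could be assigned to any of them. Of 8 tested neighbours 2 were higher in KO, *Dnajc28* (0.56, adjusted p = 0.0137 from limma) and the more distant *Itsn1* (0.99), and none was lower, while *Tmem50b* (-0.23, adjusted p = 0.0692) and *Gart* (0.32, adjusted p = 0.0597) did not pass. *Ifngr1* on chromosome 10 and *Il10ra* on chromosome 9 stand outside this cluster.

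**Figure D4:**
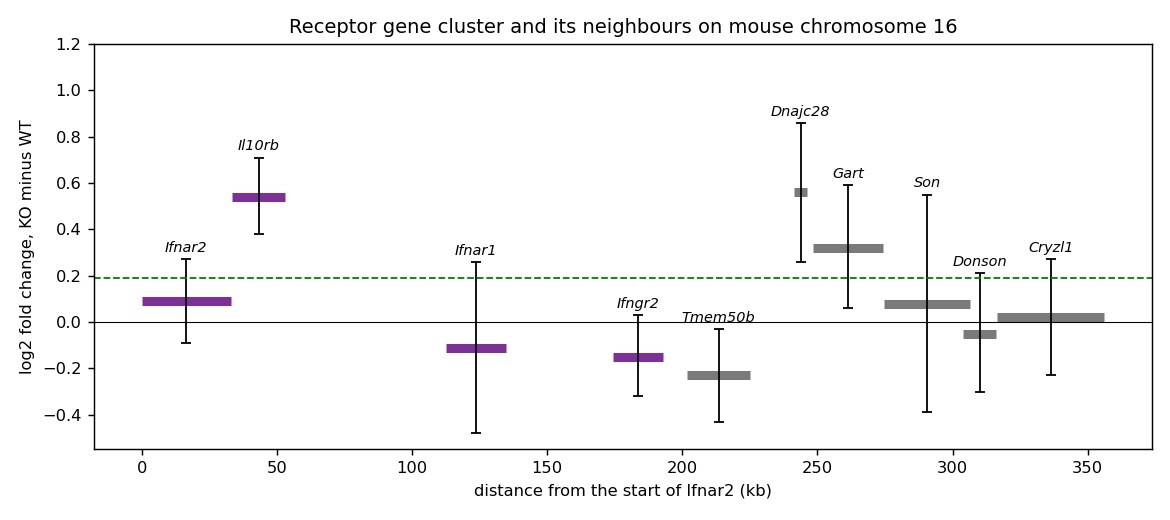
Log2 fold change, KO minus WT, of the tested protein-coding genes from *Ifnar2* to *Cryzl1* against their distance from the start of *Ifnar2* in kb (bars span each gene, whiskers are 95% limma intervals, receptor genes in purple and neighbours in grey); the dashed line marks 0.19, the median of all tested genes. Of the receptor genes of the cluster, *Il10rb* at 0.54 is the one whose interval lies above that line.

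The genes whose profile over the 6 libraries was most like that of a receptor chain were taken from 10548 genes whose mean reached 1 FPKM, by Pearson's r of log2(FPKM + 0.5), as a description. For *Ifngr1* they were *Igf1* (r = 0.9992), *Sulf2* (0.9992) and *Stk25* (0.9991), with log2 fold changes of 0.53, 1.60 and 0.32. For *Il10rb* they were *Gtse1* (0.9995), *Trpv4* (0.9993) and *Smc2* (0.9993), and for *Il10ra*, whose profile turns on KO replicate 3, *Rtn4ip1* (0.9940), *Dusp19* (0.9912) and *Uchl3* (0.9907). For *Ifnar1* they were *Irs2* (0.9977), *Heatr6* (0.9971) and *Sipa1l2* (0.9951). For *Ifngr2* they were *Stard5* (0.9988), *Psmd5* (0.9972) and *Mtfr2* (0.9934), and for *Ifnar2* *Lmbrd1* (0.9895), *Lrrcc1* (0.9892) and *Brd7* (0.9884). With 6 libraries in 2 groups, such values follow the group difference and the shift of replicate 3 that the libraries share.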

How the data were processed

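RNA-seq values of 6 BMDM libraries were analysed, each column matched to 1 sample by its title. The authors deposited FPKM per gene for 55335 mouse Ensembl identifiers, of which 55154 matched GENCODE M21 (GRCm38). Their processing notes name fastp 0.17.1, HISAT2 2.1.0, DESeq2 1.18.1 and R 3.4.3. The quantification tool, annotation and build are not given in the sources used here. The labels and the methods name different extraction reagents, library kits and sequencers. FPKM depends on the library's total, so large changes of abundant genes shift all others, and exact zeros can be failed estimates.

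Depth was estimated from the step of FPKM times length in 34186 genes with 1 transcript. Only 39.7% to 43.9% of these came within 0.1 of a whole number of steps (20% by chance), so no count test was run.

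The test was limma 3.58.1 under R 4.3.3 (eBayes with trend, two-sided, no covariate) on log2(FPKM + 0.5), over the 13367 genes whose mean reached 0.5 FPKM, with p-values adjusted across all. Chain ratios were tested by exact permutation. The fit was tested on simulated data. Promoters came from RefSeq (GRCm38.p6). Members and gene lists were chosen with earlier results of these data known. Named genes are the 8 members, the first 4 tested genes of each list, those compared with a member and the 3 nearest profiles. The other list genes and markers were named after their values were seen. Alternatives were pseudocounts of 0.1 and 1, no filter or a mean of at least 5 FPKM, 4 scalings, robust eBayes, the replicate number as a block, and each library left out. Leaving out replicate 3 of both groups was chosen after seeing the data. Python 3.11.15 with pandas 2.3.3, scipy 1.17.1 and matplotlib 3.10.9 was used for the rest.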

Additional observations from a re-analysis of the deposited data

How the results depend on the processing

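The rises of *Ifngr1* and *Il10rb* had an adjusted p-value under 0.05 (limma) under every alternative that was run. With median-of-ratios and upper-quartile scaling *Ifngr2* had log2 fold changes of -0.37 and -0.36 and was called lower, *Ifnar2* turned to -0.14 and -0.12, *Il10ra* was not called at 0.87 and 0.89 (adjusted p = 0.0812 and 0.0796), and 1 member was called lower. With no filter *Il10ra* at 1.10 was not called (adjusted p = 0.0831), where 28101 genes were tested. With each library left out its value lay between 0.72 and 1.29. Without replicate 3 of both groups *Ifnar1* was called at -0.17 and was the 1 member called lower. At the study's threshold 1 member in place of 2 was higher with both scalings and without replicate 3 of both groups, and 1 to 2 with each library left out.

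Among the lists, both scalings called 0 kinases and transcription factors higher and, of the *Ifnb1* inducers, 2 higher and 7 lower, and without replicate 3 of both groups 7 inducers were lower. A mean of at least 5 FPKM, which tests fewer genes, left 3 negative regulators lower, 1 IL-10 response gene higher, 2 inducers higher and 0 neighbours of the chromosome 16 cluster higher. Of these neighbours, 1 was higher with both scalings and with quantile normalization, 1 to 2 with each library left out, and 1 was lower with both scalings, with the replicate block and without replicate 3 of both groups. The cause of these changes was not tested.

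The replicate numbers were not shown to pair the libraries: deviations from the group means correlated by 0.12, 0.04 and 0.26 in same-numbered libraries, and not every library correlated best with its own number. With the replicate block, 5934 genes in place of 5027 had an adjusted p-value under 0.05, *Ifngr1* stayed at 1.98 (adjusted p = 0.000108) and no call on a member changed. The depth limits the statements on *Ifnb1* and *Ifng*, which rest on at most about 2.3 fragments.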
